A study of Mus musculus with 88 samples.

Results

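Obox3, a homeobox gene of the early mouse embryo, was expressed from a transfected plasmid in mouse embryonic stem cells (mESCs), and total RNA was compared with that of cells given an empty plasmid. The comparison takes in every gene of the deposited mESC table: 55364 genes in 4 libraries, 2 with Obox3 (ES_Obox3) and 2 with the empty plasmid (ES_Empty). Of these genes, 20355 reached 1 TPM (transcripts per 1000000, a length-corrected measure) in at least 2 of 10 mESC libraries and were tested. The series lists 88 samples, and 16 libraries entered the fits used here.

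All groups used the same cells, male wild-type mESCs of a C57BL/6 and 129 hybrid background. They grew on gelatin in GMEM with 15% serum, LIF, 0.5 µM of the MEK inhibitor PD0325901 and 3 µM of the GSK3 inhibitor CHIR99021, a medium that holds the cells in the naive state, and plasmids were delivered by lipid transfection. The sources used here do not give the promoter of the RNA-seq plasmids, the time of collection or any selection for transfected cells, so each library may mix cells with and without the plasmid. Further mESC groups carried Obox5 (ES_Obox5), Obox6 (ES_Obox6) or Dux (ES_Dux), with 2 libraries each. In a second setting, wild-type BDF1 late 2-cell embryos made by nuclear transfer from cumulus cells were injected with 10 ng/µl of mRNA for Obox3 (SCNT_Obox3_L2C, 2 libraries) or EGFP (SCNT_EGFP_L2C, 2 libraries). Late 2-cell embryos labelled ICSI (ICSI_L2C, 2 libraries) entered the embryo fit only through its estimate of the spread. No label says that replicates came from separate cultures or embryo collections, and the p-values below therefore reflect the spread between these libraries only, which could be technical. One library each of ES_Obox3, ES_Obox5 and ES_Dux has a column number that its group's labels lack, and is called the unnumbered library.

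Obox genes encode homeodomain transcription factors found in rodents, some stored in the oocyte and others transcribed when the embryonic genome is first activated at the 2-cell stage. Their homeodomains are related to those of the Otx and Crx factors, which bind the DNA word TAATCC. mESCs correspond to the inner cells of the blastocyst and normally keep most 2-cell-stage genes silent, apart from a small share of cells.

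The 4 libraries differed in what took up their reads. A single short RNA gene, Gm24187, took 39.8 and 53.7% of all TPM in ES_Obox3, against 20.9 and 25.9% in ES_Empty. TPM sum to a constant, and the median log2 fold change of all genes was -0.423 as deposited, against 0.005 after median-ratio scaling, -0.039 after upper-quartile scaling and 0 when protein-coding genes were rescaled. A gene was therefore called only where its adjusted p was below 0.05 and its log2 fold change was 1 or more in size, both as deposited and after median-ratio scaling, and log2 fold changes are given as deposited, as ES_Obox3 minus ES_Empty on the log2(TPM + 1) scale. Libraries of a group correlated across genes at 0.932 in ES_Obox3 and 0.931 in ES_Empty, and libraries of different groups at 0.831 to 0.846. A read step was inferred from short genes, of whose values only 51.4 to 56.5% were whole reads. By that step, 1 read on 1 kb was about 0.234 and 0.136 TPM in ES_Obox3 and 0.269 and 0.205 TPM in ES_Empty. Values near 1 TPM would therefore rest on few reads.

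In ES_Obox3, RNA was listed under the expressed gene and, mostly at higher levels, under its annotated pseudogene copies. Obox3 itself (chromosome 7, 15625306 to 15639777, GRCm38.p6, protein coding) had 1.75 and 1.59 TPM in ES_Obox3, against a listed 0 in both ES_Empty libraries (log2 fold change 1.42, SE 0.349, adjusted p = 0.0174). The annotated pseudogene copy Obox3-ps5 (chromosome 7, 15293517 to 15304613) stood at 450.7 and 262.8 TPM in ES_Obox3, Obox3-ps6 at 24.99 and 19.03 TPM and Obox3-ps2 at 17.61 and 12.97 TPM, all listed at 0 in ES_Empty. The copies ps1, ps3, ps4 and ps7 stood between 1.32 and 11.1 TPM in ES_Obox3 and were also listed at 0 in ES_Empty. In ES_Obox5, without an Obox3 plasmid, ps7 stood at 3.99 and 3.85 TPM. The sources used here do not say how reads were divided among these copies, so the level of the plasmid transcript is uncertain among them. Sequences of the copies were not compared. Whether their reads came from the plasmid or from the pseudogene loci was not tested. The defining mESC markers were present in all 4 libraries, with Pou5f1 at 198 and 150.5 TPM in ES_Obox3 and at 383 and 332 TPM in ES_Empty. Of 14 fibroblast markers 3 were tested and 0 called, Dcn, Lum and Tcf21 were at or near 0, and all 14 together summed to 19.4 and 11.6 TPM in ES_Obox3, against 12.9 and 11.4 TPM in ES_Empty, most of it from Fbln1.

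With Obox3, 936 genes were higher and 768 lower on both scales, which is 4.6% and 3.77% of the genes tested (limma, Benjamini-Hochberg adjustment). As deposited alone the counts were 951 higher (4.67%) and 2770 lower (13.6%), and after scaling they were 1587 higher (7.8%) and 768 lower (3.77%), so the share of higher genes among calls was 25.6% as deposited and 67.4% scaled. With protein-coding genes rescaled, 9.23% of 17039 genes were higher and 8.62% lower. Most changes were moderate: 633 of the higher and 483 of the lower genes had an absolute log2 fold change under 2, while 38 higher and 3 lower genes passed 4. Of the higher genes 548 averaged under 1 TPM in ES_Empty, and 201 were listed at 0 in both of its libraries. Of the lower genes 313 averaged under 1 TPM in ES_Obox3, and 64 were listed at 0 there. When each library was left out in turn, 516 of the higher and 443 of the lower genes kept their call in all 4 fits. By gene type, 560 of 11628 protein-coding genes were higher (4.82%) and 570 lower (4.9%), and of 2367 pseudogenes 113 were higher (4.77%) and 19 lower (0.8%).

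**Figure D1:**
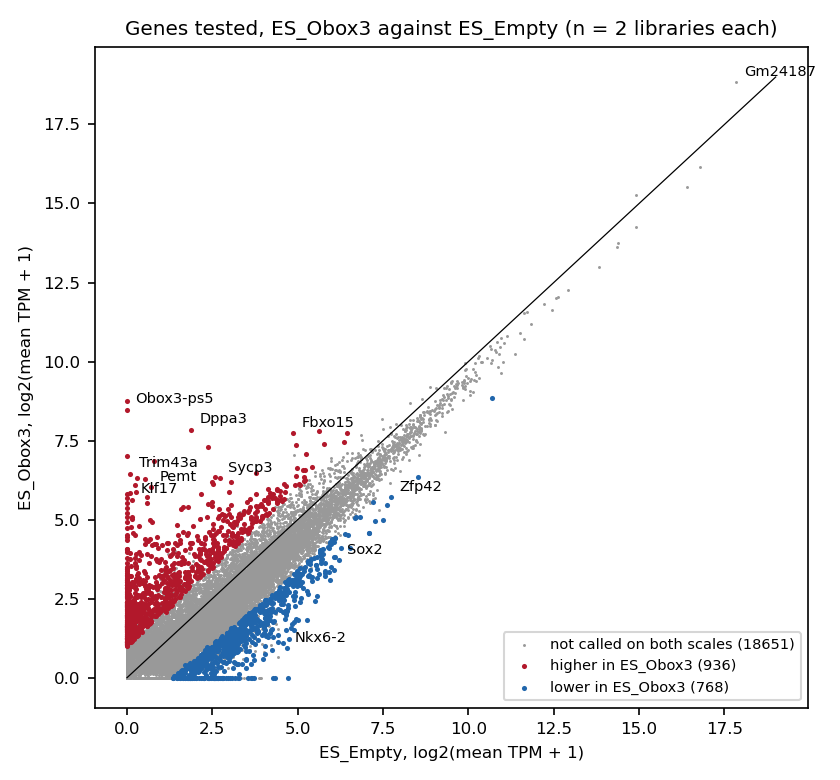
Each point is a gene tested, at the log2 of its mean TPM plus 1 in ES_Empty (x axis) and ES_Obox3 (y axis), with n = 2 libraries each; red and blue mark the 936 genes higher and the 768 genes lower in ES_Obox3 on both scales, and the line marks equal levels. Many red points lie on the left edge, where ES_Empty is near 0, and most abundant genes lie just under the line.

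The largest increases were genes that ES_Empty cells barely transcribed. Trim43a (chromosome 9, 88580891 to 88588824), of a TRIM gene family transcribed in the preimplantation embryo, had 104 and 70.0 TPM in ES_Obox3, against 0.135 and 0 TPM in ES_Empty (log2 fold change 6.34, SE 0.221, adjusted p = 4.18e-06). Guca1a (chromosome 17, 47394557 to 47413514), a calcium sensor that activates guanylate cyclase in photoreceptors, had 90.7 and 67.7 TPM in ES_Obox3, against 0.308 and 0.117 TPM in ES_Empty (6.04, SE 0.225, adjusted p = 5.59e-06). Naalad2 (chromosome 9, 18321951 to 18397538), a peptidase gene, had 73.5 and 42.5 TPM in ES_Obox3, against 0.339 and 0.0432 TPM in ES_Empty (5.59, SE 0.349, adjusted p = 5.83e-05). In each of these genes both ES_Obox3 libraries lay far above both ES_Empty libraries. Replicate 1 was the higher ES_Obox3 library as deposited. The median-ratio factors were 1.123 for replicate 1 and 0.746 for the unnumbered library, so that order need not hold after scaling.

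Among transcription and chromatin factors, Klf17 (chromosome 4, 117756659 to 117765666), a Krüppel-like factor of the oocyte and early embryo, had 57.7 and 39.4 TPM in ES_Obox3, against 0.224 and 0 TPM in ES_Empty (5.46, SE 0.354, adjusted p = 6.6e-05). Dppa3, also called Stella, a maternal protein that protects the zygote's DNA methylation, had 260.3 and 198.8 TPM in ES_Obox3, against 3.31 and 2.07 TPM in ES_Empty (5.97, SE 0.327, adjusted p = 3.23e-05). It was the most abundant protein-coding gene among the 12 largest increases. The metabolic and transport genes of that set were Pemt, which methylates phosphatidylethanolamine to phosphatidylcholine, Chit1, a chitinase, and Aqp9, a channel for water and glycerol. Pemt had 72.7 and 56.4 TPM in ES_Obox3, against 0.894 and 0.39 TPM in ES_Empty (5.33, SE 0.236). Chit1 had 34.2 and 24.3 TPM in ES_Obox3, against a listed 0 in both ES_Empty libraries, and Aqp9 had 31.8 and 20.1 TPM in ES_Obox3, against 0 and 0.149 TPM in ES_Empty. The remaining increases were Pramel7, which in mESCs lowers the DNA methylation factor Uhrf1, at 38.6 and 24.7 TPM in ES_Obox3 against 0.126 and 0.0961 TPM in ES_Empty, Bex6, and the predicted genes Gm11544 and Gm11545, both on chromosome 11. All 12 kept their call in each of the 4 fits that leave out a library.

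Promoter windows of the genes with the largest increases are shown because they hold, or lack, the word TAATCC. Each runs from 250 bases before to 50 bases after the annotated start, 5′ to 3′ on the gene's strand, from RefSeq on GRCm38.p6. Capitals mark TAATCC or, on the other strand, GGATTA. The first 4 were taken by rule and Pemt was added after its values were seen. They lie at chr9:88580641-88580940 (Trim43a, plus strand), chr17:47400557-47400856 (Guca1a, minus), chr9:18397489-18397788 (Naalad2, minus), chr4:117765617-117765916 (Klf17, minus) and chr11:60040139-60040438 (Pemt, minus).
Trim43a: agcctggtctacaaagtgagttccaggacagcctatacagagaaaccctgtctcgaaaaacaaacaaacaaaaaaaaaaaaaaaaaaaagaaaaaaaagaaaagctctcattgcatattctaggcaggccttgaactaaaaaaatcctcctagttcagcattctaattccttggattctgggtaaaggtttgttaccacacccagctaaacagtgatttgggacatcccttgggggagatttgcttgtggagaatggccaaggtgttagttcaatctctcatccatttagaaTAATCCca
Guca1a: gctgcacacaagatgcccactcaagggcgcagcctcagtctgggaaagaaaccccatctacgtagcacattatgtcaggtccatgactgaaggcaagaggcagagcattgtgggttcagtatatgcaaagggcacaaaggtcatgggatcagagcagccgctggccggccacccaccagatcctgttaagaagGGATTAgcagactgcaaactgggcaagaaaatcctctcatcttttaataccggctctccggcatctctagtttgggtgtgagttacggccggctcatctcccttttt
Naalad2: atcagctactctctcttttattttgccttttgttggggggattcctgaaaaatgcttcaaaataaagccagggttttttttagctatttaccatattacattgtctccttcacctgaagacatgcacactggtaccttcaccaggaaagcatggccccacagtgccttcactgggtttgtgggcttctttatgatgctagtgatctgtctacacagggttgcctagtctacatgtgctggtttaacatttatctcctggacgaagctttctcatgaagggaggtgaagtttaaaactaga
Klf17: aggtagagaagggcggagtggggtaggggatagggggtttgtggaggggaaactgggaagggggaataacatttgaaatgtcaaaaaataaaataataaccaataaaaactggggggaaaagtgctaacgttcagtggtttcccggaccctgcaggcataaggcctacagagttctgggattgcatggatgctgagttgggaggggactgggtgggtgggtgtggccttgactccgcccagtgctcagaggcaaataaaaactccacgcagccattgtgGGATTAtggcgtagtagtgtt
Pemt: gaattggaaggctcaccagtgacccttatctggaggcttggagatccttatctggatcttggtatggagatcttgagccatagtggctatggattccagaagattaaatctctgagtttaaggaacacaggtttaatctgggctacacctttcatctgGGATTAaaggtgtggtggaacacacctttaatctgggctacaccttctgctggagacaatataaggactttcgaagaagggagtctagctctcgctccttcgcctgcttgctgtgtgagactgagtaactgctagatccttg
The word begins 42 bases after the start in Trim43a, 57 bases before it in Guca1a, 29 bases after it in Klf17 and 92 bases before it in the Pemt window shown. It is not in Pemt's other window, in the Naalad2 window shown or in the other Naalad2 window. Of the genes not shown, Pramel7 and Bex6 lack the word, Chit1 and Gm11545 hold it, and Aqp9 has a window with it and a window without it.

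Across genes, the word was more frequent in windows of genes that rose more. Of 52 windows of genes higher by a log2 fold change of at least 3, 13 held it (25.0%). It was in 13.56% of 118 windows of genes higher by 2 to under 3, in 10.19% of 422 windows of genes higher by 1 to under 2, in 6.07% of 11605 windows of genes without a call on both scales, and in 3.66% of 628 windows of lower genes. It was in 7.06% of all 32851 RefSeq windows and in 6.24% of those of genes tested. The mean G+C content moved with these classes, at 54.36% in the most raised class, 60.14% in genes without a call and 61.88% in lower genes. The same letters in reverse order, CCTAAT, searched on both strands and chosen after the first counts were seen, were in 11.54%, 6.78% and 5.21% of the windows of the 3 higher classes in the same order, in 5.44% of those of genes without a call and in 5.25% of those of lower genes. The part of base composition in the difference was not tested. Of the 12 largest increases 10 genes had 13 windows, 7 of them with the word, and of the 12 largest decreases 6 genes had 6 windows, 0 of them with it. A match is a description of letters, not a binding site.

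**Figure D2:**
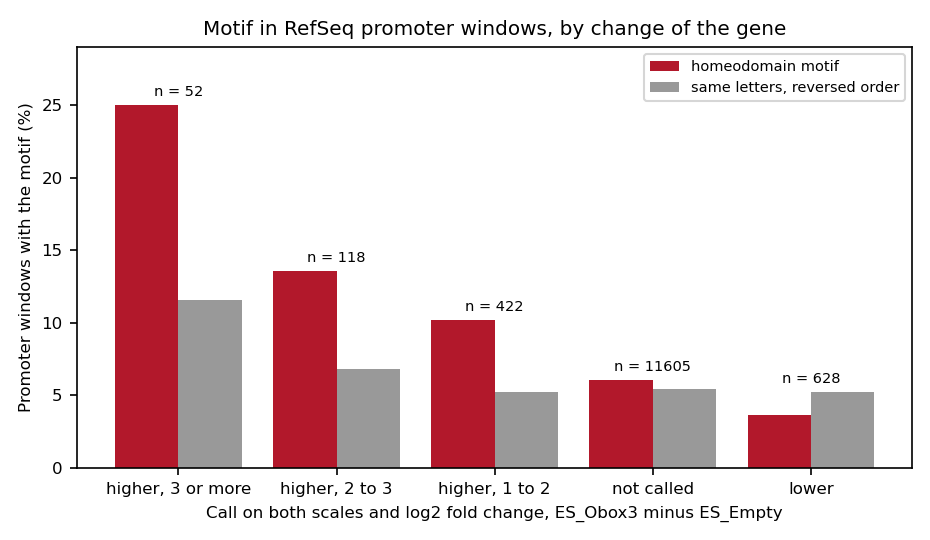
Bars give the percentage of RefSeq promoter windows that hold the homeodomain word (red) or the same letters in reverse order (grey), with genes grouped on the x axis by their call on both scales and their log2 fold change, and n as the number of windows. The red bars fall from 25.0% in genes higher by 3 or more to 3.66% in lower genes.

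The largest decreases included transcription factors and signalling genes. Nkx6-2, a homeobox gene of neural development, had 0.614 and 1.21 TPM in ES_Obox3, against 23.9 and 25.2 TPM in ES_Empty (-3.76, SE 0.237, adjusted p = 5.94e-05). Gbx2, a homeobox gene that supports naive self-renewal in mESCs, had 0.592 and 0.405 TPM in ES_Obox3, against 17.1 and 12.5 TPM in ES_Empty (-3.39, SE 0.2, adjusted p = 4.75e-05). Tcf15, a basic helix-loop-helix factor of cells leaving the naive state, had 1.91 and 2.08 TPM in ES_Obox3, against 33.2 and 20.5 TPM in ES_Empty. In these 3 factors every ES_Obox3 library lay below every ES_Empty library. The other plasmid groups were also below ES_Empty, as deposited. Nkx6-2 averaged 2.98 TPM in ES_Obox5, 4.16 in ES_Obox6 and 1.62 in ES_Dux. In the same order Gbx2 averaged 2.765, 8.12 and 2.06 TPM, and Tcf15 3.84, 3.54 and 5.10 TPM.

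Other decreases of the set included a receptor and inhibitors of signalling. F2rl1, a protease-activated receptor, had 1.11 and 1.19 TPM in ES_Obox3, against 23.9 and 21.9 TPM in ES_Empty (-3.47, SE 0.199). Spry4, an inhibitor of receptor tyrosine kinase signalling, had 0.837 and 0.827 TPM in ES_Obox3, against 19.4 and 16.6 TPM in ES_Empty (-3.37, SE 0.186, adjusted p = 3.23e-05). Lefty2, a secreted inhibitor of Nodal, had 1.7 and 0.649 TPM in ES_Obox3, against 21.6 and 19.2 TPM in ES_Empty (-3.34, SE 0.237). The set also held Lrrc34, Cited2, Arc, Gm8909 and the WNT receptor Fzd10, with log2 fold changes from -3.59 to -3.15. All 12 kept their call in each of the 4 fits that leave out a library.

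**Figure D3:**
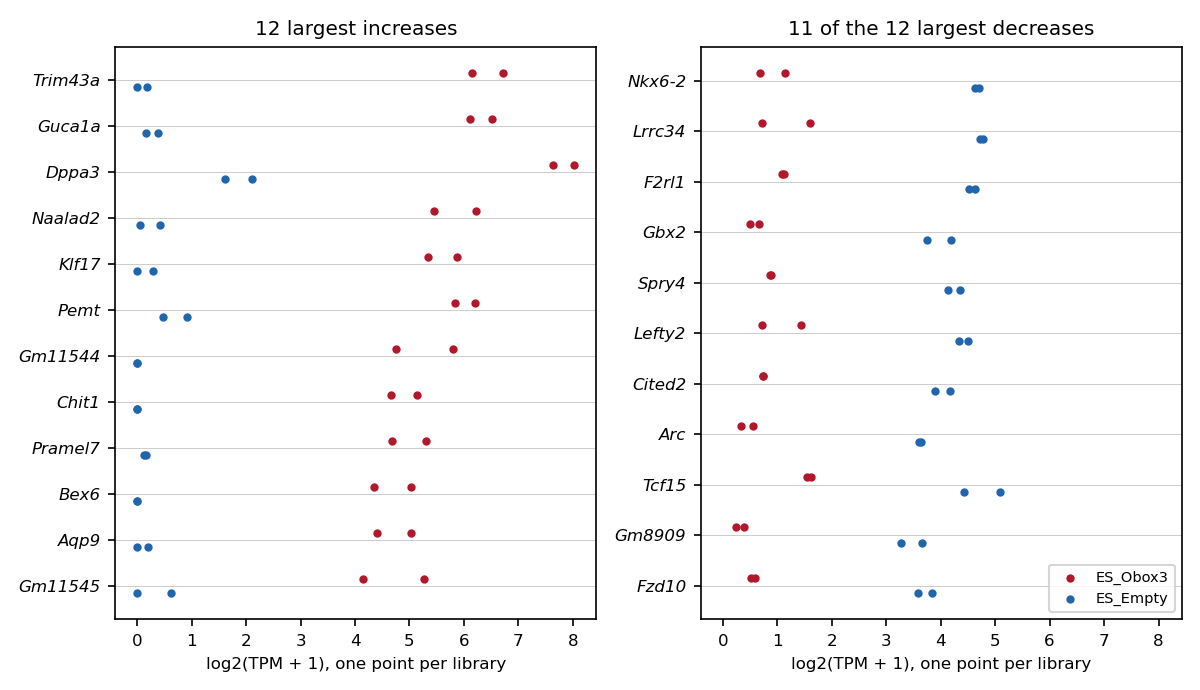
Each point is the log2(TPM + 1) of a gene (rows) in a library, for the 12 largest increases (left) and 11 of the 12 largest decreases (right); ES_Obox3 libraries are red and ES_Empty libraries blue. In all 23 genes shown both ES_Obox3 libraries lie on one side of both ES_Empty libraries.

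The groups of genes below were described by their counts on both scales, to be read against 4.6% higher and 3.77% lower over all genes tested. The median log2 fold change of their tested members is also given, to be read against -0.423 for all genes. Of 48 tested genes of the 2-cell stage, 22 were higher and 0 lower, with a median of 0.88, and without a library 16 to 21 were higher. Beside the Trim43 genes, Pramel7 and Chit1, the higher members included genes chosen here after their values were seen: the Usp17l deubiquitinases, among them Usp17lb at 6.15 and 6.08 TPM in ES_Obox3 and listed at 0 in ES_Empty, Tdpoz2 at 6.34 and 4.62 TPM in ES_Obox3 and listed at 0 in ES_Empty, and the arginase gene Arg2 at 9.51 and 6.02 TPM in ES_Obox3 against 0.094 and 0.287 TPM in ES_Empty. The best known markers of 2-cell-like mESCs were not called on both scales. Zscan4d, a telomere regulator of the 2-cell stage, had 0.309 and 0.0299 TPM in ES_Obox3, against 0.0591 and 0.0451 TPM in ES_Empty, and Zscan4c had 0.206 and 0.119 TPM in ES_Obox3, against 1.59 and 0.0901 TPM in ES_Empty. Zfp352 (0.823 and 0.417 TPM in ES_Obox3, 0.118 and 0 in ES_Empty), Tcstv3 (1.35 and 0.378 TPM in ES_Obox3, 0 in both ES_Empty libraries) and Duxf3 (1.45 and 0.914 TPM in ES_Obox3, 0 and 0.342 in ES_Empty) were also not called on both scales. Duxf3 was called higher after scaling alone, with a log2 fold change of 1.01 (limma, adjusted p = 0.00161), against 0.90 (adjusted p = 0.0179) as deposited. Members of the Trim43, Usp17l, Tdpoz, Zscan4 and Tcstv families are near copies of each other and are uncertain in level.

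Genes related to Obox3 itself moved too. Of 7 tested Obox and Crx genes 4 were higher, against 4.6% of all genes. The 4 include Obox3, the gene on the plasmid, whose rise the design sets. Crxos had 34.1 and 24.1 TPM in ES_Obox3, against 0.363 and 0.96 TPM in ES_Empty (4.18, SE 0.295, adjusted p = 9.15e-05), and its neighbour Crx, the photoreceptor homeobox gene, had 2.22 and 2.15 TPM in ES_Obox3, with 0 listed for ES_Empty. The other 2 were Obox3 and Obox8, at 1.61 and 1.39 TPM in ES_Obox3 against 0 in ES_Empty and chosen after its values were seen, and both lost their call in 3 of the 4 fits that leave out a library.

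Of 15 tested oocyte and maternal genes 5 were higher and 1 lower, and without a library 2 or 3 were higher. Beside Dppa3 the higher ones were Padi6, Khdc1a and, chosen after their values were seen, Khdc1c and Mos, and the calls of Khdc1a, Khdc1c and Mos were kept in 1 of the 4 fits without a library. Padi6, an enzyme gene of the oocyte's cytoplasmic lattices, had 2.68 and 2.84 TPM in ES_Obox3, against 0.212 and 0.243 TPM in ES_Empty. Nlrp4f, an NLR gene of oocytes, had 2.48 and 1.61 TPM in ES_Obox3, against 16.1 and 14.4 TPM in ES_Empty (-2.43, SE 0.235), and Zar1 stayed under the filter. Of 33 germ cell and meiosis genes 4 were higher and 0 lower, with a median of -0.31, the 4 being Dppa3, Sycp3, Tdrd7 and, chosen after its values were seen, Brdt. Sycp3, a component of the synaptonemal complex, had 86.4 and 71.1 TPM in ES_Obox3, against 6.8 and 4.3 TPM in ES_Empty (3.63, SE 0.275, adjusted p = 0.000118). Tdrd7, a Tudor-domain gene of germ granules, had 4.02 and 2.43 TPM in ES_Obox3, against 0.0679 and 0.104 TPM in ES_Empty. The germ cell genes Dazl, Ddx4 and Stra8 did not pass the test, at 1.03 to 4.27 TPM in ES_Obox3 and 1.61 to 7.49 TPM in ES_Empty.

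More pluripotency genes went down than up. Of 38 tested core and naive factors 13 were lower and 2 higher, with a median of -1.14, and in the fits without a library 12 or 13 were lower. Sox2, a core pluripotency factor, had 14.5 and 9.83 TPM in ES_Obox3, against 78.5 and 66.3 TPM in ES_Empty (-2.50, SE 0.261, adjusted p = 0.00043). In the other plasmid groups Sox2 was low as well. It had 14.2 and 13.1 TPM in ES_Obox5, 14.9 and 9.42 TPM in ES_Obox6 and 9.13 and 11.6 TPM in ES_Dux. Sall1, a zinc finger factor, had 5.12 and 3.4 TPM in ES_Obox3, against 34.5 and 30.4 TPM in ES_Empty (-2.68, SE 0.216), and Zfp42, the naive marker Rex1, had 59.8 and 43.2 TPM in ES_Obox3, against 224.5 and 197.9 TPM in ES_Empty (-2.03, SE 0.224). Pou5f1, Nanog and Esrrb were not called on both scales: the log2 fold change of Pou5f1 was -1.04 as deposited and -0.40 scaled, that of Nanog -0.96 and -0.32, and that of Esrrb -1.60 and -0.96. The 2 higher members were Fbxo15, an F-box gene of undifferentiated cells, with 242 and 179.1 TPM in ES_Obox3 against 30.5 and 26.0 TPM in ES_Empty (2.84, SE 0.201), and Dppa2, which activates 2-cell-stage genes in mESCs, with 160.2 and 109.5 TPM in ES_Obox3 against 41.6 and 32.7 TPM in ES_Empty (1.82, SE 0.252). Whether a lower level reflects fewer cells that express a gene or less RNA per cell cannot be told apart in these bulk samples.

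Lineage markers moved in both directions within each list. Of 16 primed and formative genes 7 were lower and 2 higher, the higher ones being Krt18, a simple-epithelium keratin, with 33.1 and 32.7 TPM in ES_Obox3 against 5.05 and 3.14 TPM in ES_Empty, and Dnmt3a. Of 19 primitive endoderm genes 2 were higher and 3 lower: Gata4 had 25.0 and 14.7 TPM in ES_Obox3, against 0.344 and 0.525 TPM in ES_Empty (3.82, SE 0.267), and Gata6 1.46 and 1.03 TPM in ES_Obox3, against 0 and 0.221 TPM in ES_Empty, with its call kept in 2 of the 4 fits without a library, while Sox17 and Pdgfra stayed under the filter at up to 0.123 TPM in any of the 4 libraries. Of 23 trophoblast genes 8 were lower and 3 higher: Hand1 had 3.87 and 2.65 TPM in ES_Obox3 against a listed 0 in ES_Empty, Eomes had 0.282 and 0.457 TPM in ES_Obox3 against 7.98 and 7.92 TPM in ES_Empty, and Cdx2 was at most 0.356 TPM in these libraries. Of 12 neural and mesodermal genes 4 were lower and 1 higher, the higher one being Gsc, an organiser homeobox gene, with 2.77 and 3.32 TPM in ES_Obox3 against 0.424 and 0.162 TPM in ES_Empty.

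The signalling pathways of the culture medium showed decreases against ES_Empty at several levels. As deposited, Spry4 averaged 0.832 TPM in ES_Obox3, 1.82 in ES_Obox5, 2.75 in ES_Obox6 and 2.96 in ES_Dux, against 17.99 in ES_Empty. Bmp4 averaged 0.494, 1.58, 1.13 and 1.77 TPM in the same order, against 10.14 in ES_Empty. Lefty2 went the other way in ES_Obox6, at 29.55 TPM against 20.42 in ES_Empty. A decrease against ES_Empty is therefore not by itself particular to Obox3. LIF acts through the receptor chains Lifr and Il6st, which activate Stat3. Of 18 tested LIF and JAK-STAT genes 8 were lower and 0 higher (median -1.17), and without a library 7 or 8 were lower. Stat3 had 4.06 and 2.48 TPM in ES_Obox3, against 13.1 and 10.4 TPM in ES_Empty (-1.60, SE 0.219, adjusted p = 0.00144), and kept its call in 2 of the 4 fits without a library. Its targets Socs2 (1.11 and 0.498 TPM in ES_Obox3, 9.75 and 7.32 TPM in ES_Empty), Gfpt2 (0.461 and 0.412 TPM in ES_Obox3, 7.25 and 6.75 TPM in ES_Empty) and Junb (2.2 and 0.675 TPM in ES_Obox3, 12.2 and 12.4 TPM in ES_Empty) were lower. Il6st, chosen after its values were seen, had 2.05 and 0.904 TPM in ES_Obox3, against 8.54 and 6.69 TPM in ES_Empty. Socs3, the best known Stat3 target, did not pass the test, with 28.0 and 24.5 TPM in ES_Obox3 and 39.6 and 28.3 TPM in ES_Empty.

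Of 29 tested FGF and ERK pathway genes 9 were lower and 4 higher (median -0.77). The lower ones included feedback inhibitors and response genes of ERK, upstream of which PD0325901 acts in all groups, and also the ligand Fgf17 and the FGF carrier Fgfbp1, both chosen after their values were seen. Beside Spry4, Ier2 had 8.91 and 7.74 TPM in ES_Obox3 against 56.2 and 53.2 TPM in ES_Empty (-2.58, SE 0.2), Myc had 1.98 and 1.4 TPM in ES_Obox3 against 15.0 and 15.4 TPM in ES_Empty (-2.60, SE 0.221), and Dusp6, an ERK phosphatase, had 4.86 and 3.94 TPM in ES_Obox3 against 15.3 and 15.6 TPM in ES_Empty, with its call kept in 2 of the 4 fits without a library. The higher ones were 2 receptors and 2 ligands. Fgfr4 had 6.48 and 3.33 TPM in ES_Obox3, against 0.228 and 0.232 TPM in ES_Empty (2.21, SE 0.28), Fgfr3 had 4.84 and 3.44 TPM in ES_Obox3, against 0.169 and 0.172 TPM in ES_Empty (2.12, SE 0.207), and Fgf1 had 3.52 and 1.45 TPM in ES_Obox3, against 0 and 0.0376 TPM in ES_Empty. The ligand Fgf15 was the fourth, and lost its call in 3 of those 4 fits. Etv5, another ERK-responsive gene, did not pass the test.

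In the TGF-beta, Nodal and BMP pathway 9 of 28 tested members were lower and 0 higher (median -1.27), and in each fit without a library 9 were lower. Bmp4 had 0.625 and 0.362 TPM in ES_Obox3, against 9.74 and 10.5 TPM in ES_Empty (-2.90, SE 0.358), Inhbb, an activin subunit, had 0.165 and 0.159 TPM in ES_Obox3, against 7.26 and 4.96 TPM in ES_Empty (-2.59, SE 0.251), and Lefty1 had 0.4 and 0.347 TPM in ES_Obox3, against 5.65 and 7.29 TPM in ES_Empty. The inhibitory Smad gene Smad7, chosen after its values were seen, had 8.86 and 7.05 TPM in ES_Obox3, against 46.3 and 47.0 TPM in ES_Empty. Nodal itself did not pass the test, at 19.3 and 15.5 TPM in ES_Obox3 and 32.3 and 27.0 TPM in ES_Empty. Of 22 WNT pathway genes 4 were lower and 0 higher (median -1.02). They were the receptors Fzd10 and Fzd7 (2.22 and 1.47 TPM in ES_Obox3, 15.7 and 15.1 TPM in ES_Empty), the inhibitor Sfrp1 and the target Cdx1 (1.74 and 1.4 TPM in ES_Obox3, 16.1 and 15.3 TPM in ES_Empty), whereas the targets Axin2 and Sp5 did not pass the test.

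Among 15 Klf factors Klf17 was the only one higher, and 6 were lower, as in each fit without a library. Klf10 had 4.54 and 3.38 TPM in ES_Obox3, against 28.6 and 21.6 TPM in ES_Empty (-2.39, SE 0.204), Klf3 had 0.781 and 0.549 TPM in ES_Obox3, against 6.58 and 6.18 TPM in ES_Empty, and Klf4, a naive factor, had 26.0 and 19.04 TPM in ES_Obox3, against 86.7 and 78.4 TPM in ES_Empty (-1.84, SE 0.194). Summed over the family as deposited, Klf transcripts stood at 214.8 and 142.8 TPM in ES_Obox3, against 347.6 and 287.6 TPM in ES_Empty. The sums were not scaled. The median log2 fold change of the 15 factors was -1.305 as deposited and -0.805 scaled, against -0.423 and 0.005 for all genes.

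DNA methylation genes changed in both directions, with 2 higher and 2 lower of 19. Dppa3 and the methyltransferase Dnmt3a rose, Dnmt3a with 19.2 and 14.0 TPM in ES_Obox3 against 6.42 and 4.17 TPM in ES_Empty (1.49, SE 0.231). Tet2, a 5-methylcytosine dioxygenase, had 9.58 and 5.79 TPM in ES_Obox3, against 31.2 and 27.3 TPM in ES_Empty (-1.83, SE 0.245), and Gadd45a, a stress-response gene linked to demethylation, had 0.73 and 0.846 TPM in ES_Obox3, against 12.5 and 7.91 TPM in ES_Empty. Uhrf1 was not called on both scales, with a log2 fold change of -1.38 as deposited and -0.74 scaled. Of 38 histone methylation and Polycomb genes 2 were lower and 1 higher, near the 3.77% and 4.6% of all genes. Epop, a cofactor of Polycomb repressive complex 2, had 50 and 35.99 TPM in ES_Obox3 against 209.2 and 178.9 TPM in ES_Empty (-2.16, SE 0.215). Cbx2 was lower too, and Kdm2b was higher with its call kept in 2 of the 4 fits without a library.

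Lipid and one-carbon genes were among the increases. Of 20 phospholipid genes 4 were higher and 2 lower (median -0.23), and the 4 stood in each fit without a library. Beside Pemt they were Pcyt2, which makes CDP-ethanolamine, with 33.2 and 28.5 TPM in ES_Obox3 against 6.43 and 5.59 TPM in ES_Empty (2.18, SE 0.192), Chka, choline kinase, with 30.5 and 22.1 TPM in ES_Obox3 against 5.04 and 6.33 TPM in ES_Empty (2.02, SE 0.225), and Chpt1, cholinephosphotransferase, chosen after its values were seen, with 8.26 and 5.88 TPM in ES_Obox3 against 2.03 and 1.39 TPM in ES_Empty. Pcyt1b, which makes CDP-choline, was lower, with 3.5 and 1.34 TPM in ES_Obox3 against 14.5 and 10.5 TPM in ES_Empty. Of 23 serine, one-carbon and methionine genes 4 were higher and 0 lower (median -0.17), among them Pemt, Gldc of the glycine cleavage system with 49.5 and 42.2 TPM in ES_Obox3 against 11.7 and 8.96 TPM in ES_Empty (2.05, SE 0.192), and Phgdh, the entry enzyme of serine synthesis, with 52.8 and 42.8 TPM in ES_Obox3 against 21.8 and 18.2 TPM in ES_Empty (1.21, SE 0.21). Of 23 glycolysis genes 0 were called on both scales, although 7 were lower as deposited, among them Hk2 with -1.61 as deposited and -0.99 scaled. Of 27 cholesterol and fatty acid genes 1 was higher, Dhcr7, and 1 lower, Idi1, near the 4.6% and 3.77% of all genes.

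Stress genes split evenly, with 6 higher and 6 lower of 30, and without a library 3 to 6 were higher and 6 or 7 lower. Nupr1, a stress-induced regulator, had 39.0 and 25.7 TPM in ES_Obox3, against 6.3 and 4.41 TPM in ES_Empty (2.38, SE 0.245), and Ppp1r15a, which reverses the translation block of the integrated stress response, had 52.5 and 49.1 TPM in ES_Obox3, against 19.4 and 19.3 TPM in ES_Empty (1.35, SE 0.187). Among the lower ones were oxidative stress genes of the Nrf2 pathway: Srxn1 had 2.33 and 2.55 TPM in ES_Obox3, against 20.8 and 16.4 TPM in ES_Empty (-2.50, SE 0.191), and Nqo1 and Hmox1, both chosen after their values were seen, had log2 fold changes of -2.26 (SE 0.25) and -1.89 (SE 0.226). Hspa5, a marker of endoplasmic reticulum stress, did not pass the test. Of 29 p53 target genes 3 were higher, Ddit4, Tigar and Ei24, and 3 lower, Perp, Gadd45a and Cd80 (kept in 1 of the 4 fits without a library), while Mdm2 and Cdkn1a were not called on both scales, and of 22 apoptosis genes 1 was higher, Bok, with its call kept in 2 of those 4 fits, against 4.6% higher over all genes. Of 14 interferon and viral sensing genes 1 was lower, against 3.77% lower over all genes. It was Ifitm3, with 12.8 and 10.0 TPM in ES_Obox3 against 57.0 and 52.7 TPM in ES_Empty.

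Cell surface and housekeeping lists completed the picture. Of 26 keratin, claudin and junction genes 8 were lower and 2 higher, and Cldn4, a tight-junction claudin, had 2.32 and 0.822 TPM in ES_Obox3, against 24.7 and 16.3 TPM in ES_Empty (-3.10, SE 0.299). Of 20 mesenchymal and matrix genes 6 were lower and 1 higher, and without a library 4 or 5 were lower. Vim had 9.28 and 5.55 TPM in ES_Obox3 against 49.7 and 33.6 TPM in ES_Empty, and the exception was Snai1, a repressor of E-cadherin, with 5.35 and 6.19 TPM in ES_Obox3 against 1.49 and 1.39 TPM in ES_Empty. Of 45 cell cycle and replication genes 1 was higher, Cdc6, and 3 were lower, E2f2, Myc and Cdk6, Cdk6 with a log2 fold change of -2.21 (SE 0.223), against 4.6% and 3.77% over all genes. Cdc6 and E2f2 kept their calls in 2 of the 4 fits without a library, 10 of the 45 genes were lower as deposited, and 6 were higher after scaling. Among 40 cytosolic ribosomal protein genes (median -0.50, scaled 0.14) and 36 ribosome biogenesis genes (median -0.34, scaled 0.30), 0 were called on both scales by limma, although 5 of the 36 were higher after scaling, where 7.8% of all genes were. The abundant small noncoding RNAs Rn7sk, Rmrp, Rpph1 and Rn7s2 were not called on either scale, and Vaultrc5 and Rny1 were lower, with calls kept in 2 and 1 of the 4 fits without a library. Together the 19 entries tested made up 109190 and 86344 TPM in ES_Obox3, against 155210 and 177700 TPM in ES_Empty, as deposited. These sums were not scaled, and the median log2 fold change of the 19 was -0.66 as deposited and -0.01 scaled.

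**Figure D4:**
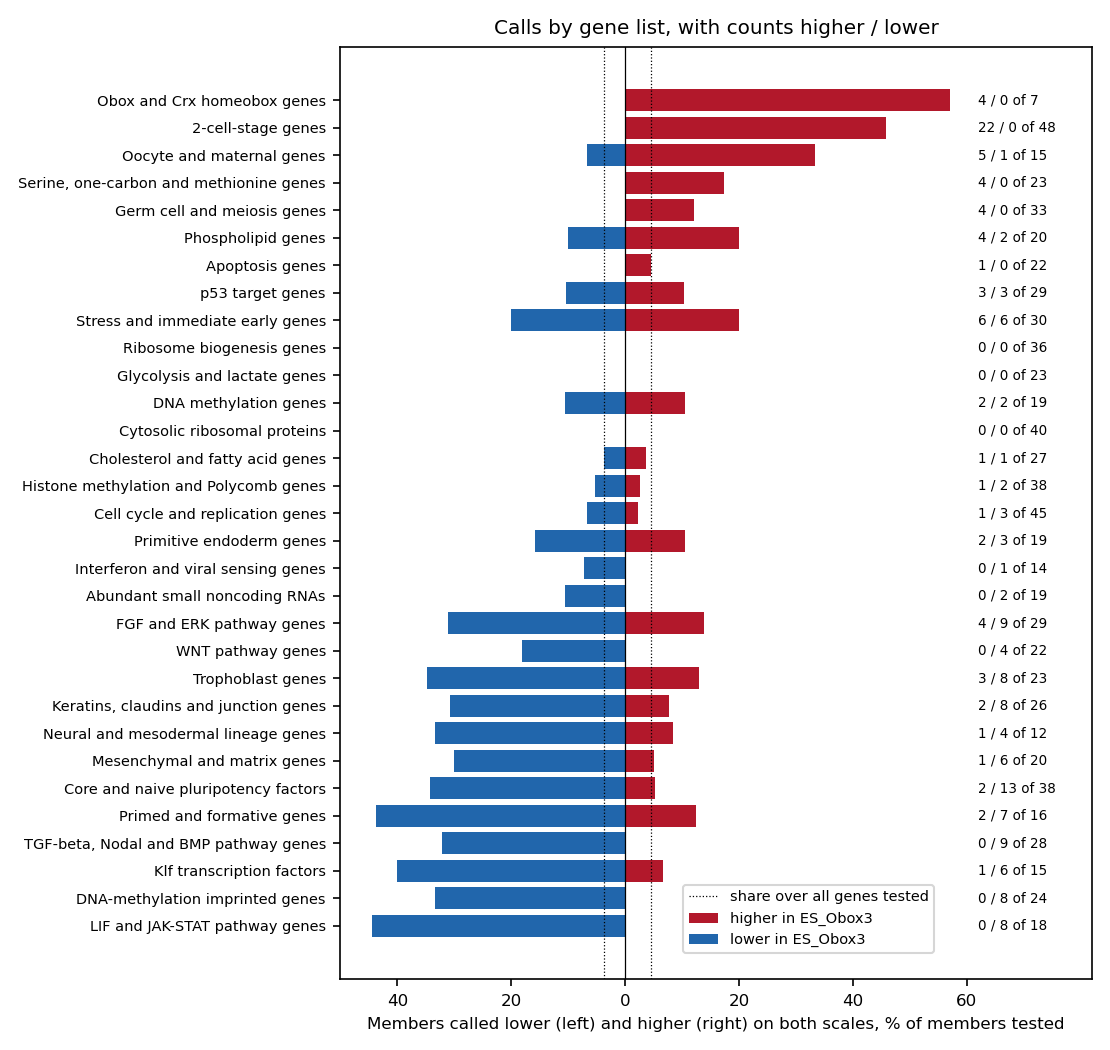
Bars give, for each gene list with at least 7 tested members (rows), the percentage of those members called higher (red, right) and lower (blue, left) in ES_Obox3 on both scales, with counts as higher / lower of tested; dotted lines mark 4.6% and 3.77%, the shares over all genes tested. The 2-cell-stage list has 22 higher and 0 lower, and the LIF and JAK-STAT list has 0 higher and 8 lower.

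The response was next set against those to the related factors, in contrasts that use ES_Obox3 but not ES_Empty. ES_Obox3 and ES_Obox5 differed on both scales in 7 higher (0.0344%) and 3 lower genes (0.0147%). As deposited the shares were 0.0393% and 0.0147%, and scaled they were 0.0639% and 0.0197%. The 7 were Obox3-ps1, -ps2, -ps4, -ps5 and -ps6, Mir3475 and Gm26014, and the 3 were Obox5, Mir1190 and Gm22963. These few were all named after their values were seen. For the 12 largest increases the log2 difference between ES_Obox3 and ES_Obox5 ran from -0.93 (Bex6) to 1.02 (Gm11545), with SE up to 0.445, and 0 of them were called on both scales, which does not show that the factors act alike. The homeobox gene Gsc2 had 15.6 and 16.2 TPM in ES_Obox3, against 3.29 and 3.03 TPM in ES_Obox5, with a log2 difference of 2.02 (SE 0.248, adjusted p = 0.0459) as deposited and 2.30 (adjusted p = 0.0504) scaled.

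Against ES_Obox6, 511 genes were higher (2.51%) and 535 lower (2.63%) in ES_Obox3 on both scales, and against ES_Dux 1842 were higher (9.05%) and 697 lower (3.42%). Higher and lower shares against ES_Obox6 were 2.52% and 6.61% as deposited and 4.84% and 2.66% scaled, and against ES_Dux 20.3% and 3.42% as deposited and 9.25% and 8.33% scaled. Klf17 had 57.7 and 39.4 TPM in ES_Obox3 and 37.9 and 29.7 TPM in ES_Obox5, against 0.103 and 1.07 TPM in ES_Obox6 and 0.0588 and 0.667 TPM in ES_Dux. Dppa3 had 260.3 and 198.8 TPM in ES_Obox3 and 290.1 and 229.8 TPM in ES_Obox5, against 18.6 and 12.6 TPM in ES_Obox6 and 1.58 and 3.59 TPM in ES_Dux. Trim43a was high with all 3 Obox factors, at 104 and 70.0 TPM in ES_Obox3, 90.4 and 76.9 TPM in ES_Obox5 and 74.7 and 63.6 TPM in ES_Obox6, against 0.427 and 0.353 TPM in ES_Dux. Chit1 and Gm11544 were high in ES_Dux too: Chit1 had 34.2 and 24.3 TPM in ES_Obox3, against 17.0 and 17.0 TPM in ES_Dux, and was not called on both scales in that contrast. The 12 genes were picked on the ES_Obox3 libraries, so that 10 of them were higher than in ES_Obox6 and 10 higher than in ES_Dux on both scales is a description. Zscan4d showed the reverse, with a log2 difference of -9.93 (adjusted p = 1.95e-07) between ES_Obox3 and ES_Dux. Among the 936 genes higher than in ES_Empty, 649 (69.34%) were also higher than in ES_Dux on both scales, against 9.05% of all genes. Against ES_Obox6 the count was 417 (44.55%), where 2.51% of all genes were higher. Against ES_Obox5 it was 7 (0.75%), where 0.0344% were. Lower than in ES_Dux, ES_Obox6 and ES_Obox5 were 59, 12 and 0 of the 936. Among the 768 genes lower than in ES_Empty, 68 (8.85%) were also lower than in ES_Dux on both scales, against 3.42% of all genes. The matching counts were 183 (23.83%) against ES_Obox6, where 2.63% of all genes were lower, and 1 (0.13%) against ES_Obox5, where 0.0147% were. Higher than in ES_Dux were 2 of the 768, and 0 were higher than in ES_Obox6 or ES_Obox5. The 936 and the 768 genes were also picked on the ES_Obox3 libraries, and a missing call does not show equal levels.

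**Figure D5:**
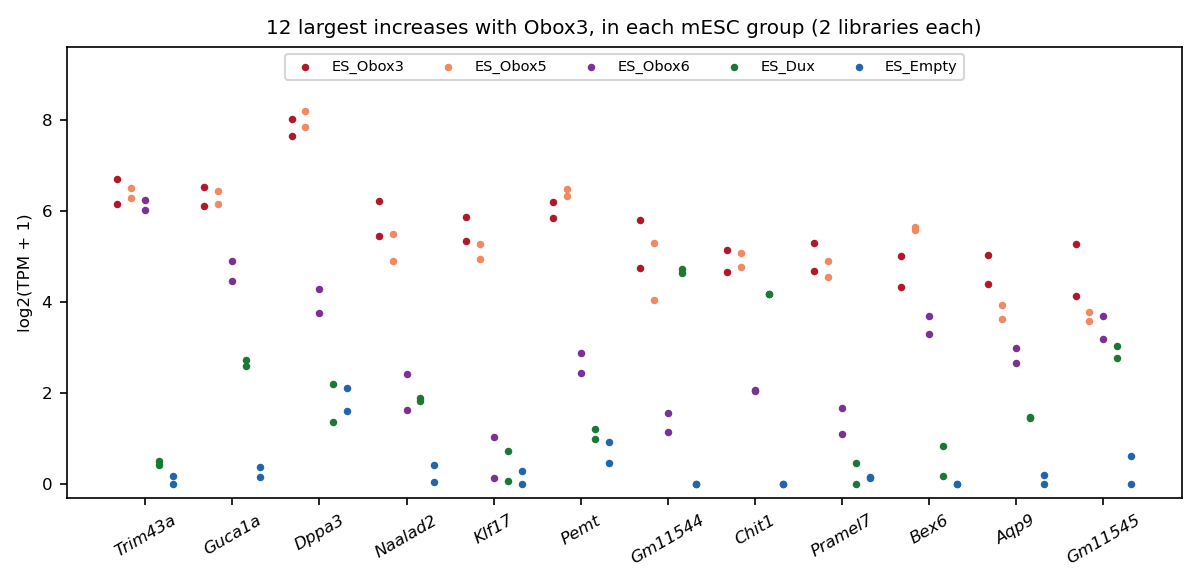
Each point is the log2(TPM + 1) of a library, for the 12 largest increases with Obox3 (x axis) in the groups ES_Obox3, ES_Obox5, ES_Obox6, ES_Dux and ES_Empty from left to right, with 2 libraries each. ES_Obox3 and ES_Obox5 points overlap or lie close in most genes, and ES_Empty points lie near 0.

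Obox3 mRNA in nuclear transfer embryos gave a setting with samples the mESC comparison did not use. In late 2-cell embryos 20 of 18252 genes tested were higher (0.11%) and 8 lower (0.0438%) with Obox3 than with EGFP, and after median-ratio scaling 257 were higher (1.41%) and 32 lower (0.175%). These limma calls were mostly lost whichever library was left out, so they are fragile. Such a fit leaves 1 library in a group and has less power, so the loss does not show dependence on a particular library. Of the 936 genes higher in mESCs, 823 were tested in embryos, of which 9 were higher (1.09%) and 1 lower, or 72 higher (8.75%) and 1 lower after scaling. Their median log2 fold change in embryos was 0.44, against -0.03 for all genes tested. Of the 768 genes lower in mESCs, 431 were tested in embryos, of which 0 were higher and 1 was lower, with a median of -0.27. The 9 shared genes, named after their values were seen, were H2-Q6, A430060F13Rik, Obox8, Obox3-ps4, Npl, Gm11517, Exoc3l2, Gm25123 and Larp1b, which is 9 of the 20 embryo genes and 9 of the 936 mESC genes. Obox3-ps4 is an annotated pseudogene copy of the gene delivered in both settings, so its level is uncertain. The gene lower in both was Hes1, a Notch target repressor, with 1.55 and 0.933 TPM in SCNT_Obox3_L2C against 15.9 and 10.3 TPM in SCNT_EGFP_L2C.

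The largest mESC increases were present in EGFP embryos too. Of those 12 genes all were tested in embryos and 11 had a positive log2 fold change, with 0 called as deposited and 3 higher after scaling. Over all genes tested in embryos, 0.11% were higher as deposited and 1.41% after scaling. The share of all genes with a positive log2 fold change was not counted, so the counts of signs are a description. Pramel7, one of the 3, had 168.1 and 131.6 TPM in SCNT_Obox3_L2C, against 52.4 and 55.3 TPM in SCNT_EGFP_L2C (1.45, adjusted p = 0.0576, scaled 1.48, adjusted p = 0.0375). Klf17 had 270.6 and 299 TPM in SCNT_Obox3_L2C, against 158.3 and 210 TPM in SCNT_EGFP_L2C, and Dppa3 had 1122 and 1109 TPM in SCNT_Obox3_L2C, against 536.7 and 741 TPM in SCNT_EGFP_L2C, neither past the test on either scale. All 22 of the 2-cell-stage genes higher in mESCs were tested in embryos, where 21 had a positive log2 fold change. Of the 22, 0 were called as deposited and 6 were higher after scaling, to be read against the same shares of all genes. Of the 13 pluripotency factors lower in mESCs 11 were tested, 2 of them with a positive log2 fold change and 0 called. Fgf4, a ligand of the FGF pathway that was not called on both scales in mESCs, was higher in embryos, with 13.3 and 9.72 TPM in SCNT_Obox3_L2C against 1.01 and 1.77 TPM in SCNT_EGFP_L2C (2.39, SE 0.271, adjusted p = 0.04997).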

How the data were processed

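Total RNA was made into libraries with a stranded SMART-seq kit, per the labels' protocols. Per the file headers, the authors deposited gene-level TPM, in 1 mESC and 1 embryo table, and each column sums to 1000000. Tools and build in the submitters' processing notes are HISAT2, Trim Galore, bedtools, featureCounts 1.6.5, deepTools, Bowtie2, MACS2 and mm10, in no stated order or role. Annotation, strand setting and multi-mapping treatment: not given in the sources used here. Hence the levels of near-identical copies, overlapping genes and antisense partners are uncertain. TPM keep no depth; the low values of short genes gave a read step, but only 51.4 to 56.5% of them were whole reads (tolerance 0.01 reads), so no count model was used.

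Tests used limma 3.58.1 in R 4.3.3 on log2(TPM + 1), with robust, trended moderation (statmod 1.5.0) and Benjamini-Hochberg adjustment over all genes tested. Genes needed at least 1 TPM in at least 2 libraries. All 10 replicated mESC libraries shared 1 estimate of the spread (5 residual and 3.71 prior degrees of freedom), as did the 6 embryo libraries (3 and 3.48). The test was checked on simulated data. The mESC and embryo tables were tested separately. For 3 mESC columns the name gave only the group. Where 1 library was left out, the lone library of its group was assumed to vary like the other groups.

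Named genes were Obox3 and its copies, the 12 largest increases and the 12 largest decreases among RefSeq protein-coding genes called on both scales with a mean of at least 10 TPM in the higher group, and, for each of 32 lists, up to 3 called members in each direction plus chosen anchors. The members, the lists and this rule were chosen with earlier results of these data known. Gene types, coordinates and promoter windows were matched by symbol in RefSeq tables of GRCm38.p6, a patch release of the mm10 assembly. Alternatives covered scaling, pseudocounts, filters, libraries fitted, moderation and leaving out each library. Some genes that the rule names are not reported here.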

Additional observations from a re-analysis of the deposited data

Results flagged for a closer look

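One gene was called in opposite directions in the 2 settings. Gm25406, a short pseudogene in the RefSeq table, had 6.69 and 3.88 TPM in ES_Obox3, against a listed 0 in both ES_Empty libraries (log2 fold change 2.614, SE 0.379, adjusted p = 0.00185). In embryos it was listed at 0 in both SCNT_Obox3_L2C libraries, against 14.8 and 15.8 TPM in SCNT_EGFP_L2C (-4.027, SE 0.401, adjusted p = 0.0456). The difference between the settings was not tested, since the tables were normalised separately.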

How the results depend on the processing

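The counts on both scales (936 higher, 768 lower) moved most with the pseudocount and the filter: 340 higher and 168 lower with a pseudocount of 5, 1228 lower with 0.1, and 596 higher with at least 5 TPM. As deposited alone (951 higher, 2770 lower) there were 1587 higher and 768 lower with median-ratio scaling, 943 lower with upper-quartile scaling, 340 higher and 788 lower with a pseudocount of 5, 598 higher with at least 5 TPM, and 1572 higher and 1468 lower when protein-coding genes were rescaled, an alternative added after seeing the data. Without 1 library the counts as deposited ran from 659 to 1135 higher and 1510 to 4248 lower (1510 without the unnumbered ES_Obox3 library, 4248 without ES_Obox3 replicate 1, 1579 without ES_Empty replicate 1), and on both scales from 647 to 1072 higher and 641 to 678 lower. The counts kept within 1.5 times under the other settings. Median-ratio scaling gave, as higher and lower, 1883 and 1696 against ES_Dux (4130 and 697 as deposited), 13 and 4 against ES_Obox5 (8 and 3), and 985 and 542 against ES_Obox6 (513 and 1346). In embryos it gave 257 and 32 (20 and 8 as deposited), and without 1 library 0 to 5 higher and 0 to 0 lower. With the replicate number as a block in the embryo fit, 0 genes were higher and 0 lower (3687 had an unadjusted p under 0.05), and deviations of same-numbered embryo samples correlated at 0.014 to 0.067, so the numbers did not pair them. No paired analysis was possible for mESCs because ES_Obox3 and ES_Empty share only 1 replicate number. Of 179 named genes tested, 0 called genes changed sign in any alternative, and 17 uncalled ones did in at least 1; 34 lost their call with a pseudocount of 5 and 15 with median-ratio scaling. The cause of these differences was not tested. By the inferred read step about 4 to 7 reads lie behind 1 TPM on 1 kb, which limits the genes near that level.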

Other observations

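A pair of loci, both chosen after their values were seen, are described here. On chromosome 11, in the 500000 bases on each side of the pseudogene Gm12617 (GRCm38.p6, 60192683 to 61193113), 36 genes were tested, of which 8 were higher and 2 lower on both scales, against 4.6% and 3.77% of all genes. The 8 kept their calls in all 4 fits that leave out a library. All 8 higher genes were among the 10 tested pseudogenes from Gm12628 to Gm12617, of which 6 were listed at 0 in both ES_Empty libraries, whereas of 20 protein-coding genes in the window 0 were higher and 1 was lower. Gm12617 had 495.8 and 371 TPM in ES_Obox3, against 0 TPM in both ES_Empty libraries, and in each ES_Obox3 library its TPM exceeded that of every protein-coding gene called higher. It had 524.9 and 468.6 TPM in ES_Obox5, 52.6 and 52.7 TPM in ES_Obox6 and 2.22 and 2.63 TPM in ES_Dux. In embryos it had 289.8 and 360.3 TPM in SCNT_Obox3_L2C, against 162 and 213.5 TPM in SCNT_EGFP_L2C. These pseudogenes may share sequence, so the level of each is uncertain.

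On chromosome 12, the imprinted domain from Meg3 to Mirg (109540996 to 109749458), where the noncoding RNAs are transcribed from the maternal chromosome, held 15 of the 768 lower genes. Of 74 genes tested there 15 were lower and 0 higher on both scales, against 3.77% and 4.6% of all genes. As deposited, 71 had a negative and 1 a positive log2 fold change, on a scale where the median of all genes was -0.423. Signs were not counted after scaling. Of the 15, 9 kept their call in all 4 fits that leave out a library. Meg3 had 0.859 and 0.6 TPM in ES_Obox3, against 7.21 and 7.93 TPM in ES_Empty, and Rian had 2.02 and 1.25 TPM in ES_Obox3, against 10.7 and 9.62 TPM in ES_Empty. Rtl1, a retrotransposon-derived gene of the same domain, had 0.669 and 0.16 TPM in ES_Obox3, against 4.63 and 7.34 TPM in ES_Empty. Of 56 microRNA genes in the domain 10 were lower, against 4.78% of all microRNA genes tested, and 5 of the 10 kept their call in all 4 fits, while Mir411 kept it in 0. Of the 56, 36 were listed at 0 in both ES_Obox3 libraries, against 2 listed at 0 in both ES_Empty libraries. The filter bears on this contrast, since a gene was tested only if it reached 1 TPM in at least 2 of 10 libraries. Mir369 did so only in ES_Empty, with 4.52 and 3.04 TPM there and at most 0.976 TPM in any other mESC library fitted. The counts of microRNA genes at 0 are therefore only a description. At the same TPM such short genes rest on fewer reads, and reads of a host transcript can fall on them. In the other mESC groups Meg3 had 1.92 and 1.21 TPM in ES_Obox5, 4.94 and 5.83 TPM in ES_Obox6 and 1.7 and 1.86 TPM in ES_Dux. Of 24 tested imprinted genes 8 were lower and 0 higher, and beside this domain they included Mest, with 4.33 and 2.05 TPM in ES_Obox3 against 19.7 and 18.4 TPM in ES_Empty.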
